A study of Pseudopodoces humilis with 2 samples.

Results

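A cassette exon is an internal exon that is spliced into some transcripts of a gene and left out of others as a unit, with the neighbouring exons joined directly. In the transcripts assembled from liver and muscle of the ground tit (Pseudopodoces humilis), a songbird of the Tibetan plateau, 4460 cassette exons were found among 124674 internal exons of 31 bases or more. A cassette exon was taken where both introns that flank it occurred in 1 transcript, and where an intron in any of the 3 assemblies joined the outer ends of those introns. This is 3.58% of the internal exons (Wilson 95% interval 3.48 to 3.68, counting error only). The series held 1 liver sample and 1 muscle sample, sequenced from total RNA as TruSeq libraries on an Illumina HiSeq instrument to help annotate genes, and the labels give no age, sex or number of birds. Transcripts were assembled with Cufflinks into 1 set for liver and 2 for muscle, called muscle assembly 2 and muscle assembly 3 after their labels. With 1 sample per tissue no difference was tested, and the 2 muscle assemblies served as the only measure of spread. The labels do not say whether they come from separate birds, separate libraries or the same reads. Their spread may thus leave out differences between birds or libraries that a comparison of liver with muscle can hold. The files used here pair no gene ID with a name, so exons are named by position and the labelled tissues were not checked against marker genes.

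Inclusion or skipping of a cassette exon is set when the spliceosome pairs splice sites, and RNA-binding proteins that differ between tissues shift that choice. Muscle is known for many such exons in genes of the contractile apparatus, the membrane and the cytoskeleton. An exon whose length is a multiple of 3 can be left out of a coding sequence without moving the reading frame, while any other length moves it. The rows that list exons in the assemblies carry the type CDS, but they span whole assembled transcripts, so an exon here is not known to be coding.

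Each tissue's assembly by itself held many exons in both forms. An exon counted as included in an assembly only where it lay there between flanking introns that were skipped, not between other introns. It counted as skipped only by an intron that joined the outer ends of those flanking introns. A longer intron that skips it with a neighbouring exon was not counted. Inclusion alone therefore does not mean that every transcript there carried the exon. Inclusion and skipping of the same exon were assembled within liver for 1449 exons, within muscle assembly 2 for 2108 and within muscle assembly 3 for 1988. Inclusion alone was found for 1012, 1210 and 1185 exons in the same order, and skipping alone for 935, 754 and 816. Liver thus had the fewest exons with both forms and the most with skipping alone. The liver assembly was also the smallest, with 23614 transcripts against 31092 and 27092, and the part of that difference in the counts of forms was not tested.

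**Figure D1:**
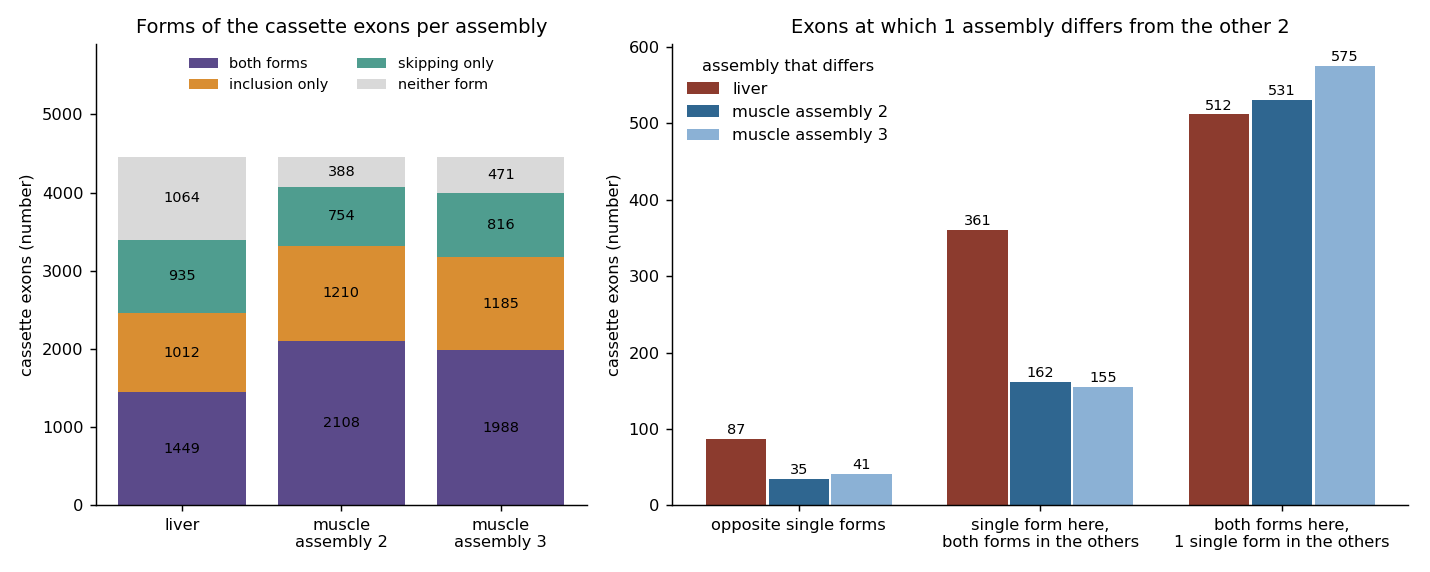
Left, the 4460 cassette exons by the forms assembled in each of the 3 assemblies (bars stacked, number of exons). Right, number of exons with a form in every assembly at which 1 assembly differed from the other 2, by kind of difference, with 87 opposite single forms for liver against 35 and 41 for the muscle assemblies.

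Neither form was found for 1064 exons in liver, against 388 and 471 in the muscle assemblies. In liver, 862 of these lay where no spliced transcript of the same strand spanned the exon. In the muscle assemblies the same was true for 229 and 307. Exons of neither form that were present there between other introns numbered 58 in liver, 48 in muscle assembly 2 and 61 in muscle assembly 3. Absence of both forms from an assembly therefore often meant that no single spliced transcript spanned the exon there. Other parts of the locus can still have been assembled. Unless stated otherwise, tissue comparisons were made over the 2882 exons with a form in all 3 assemblies. A bulk assembly cannot tell fewer cells using a form from less RNA of that form per cell.

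Liver differed from both muscle assemblies more often than either muscle assembly differed from liver and the other. At 87 exons liver held only 1 form and both muscle assemblies held only the other, which is 3.02% of the 2882 exons. Muscle assembly 2 stood alone in this way at 35 exons and muscle assembly 3 at 41. Of the 87, 34 were included in liver and skipped in muscle, and 53 were skipped in liver and included in muscle. The muscle assemblies gave opposite single forms to each other at 95 of the 2882 exons (3.30%, Wilson 95% interval 2.70 to 4.01). Liver and muscle assembly 2 did so at 164 (5.69%, 4.90 to 6.60), and liver and muscle assembly 3 at 166 (5.76%, 4.97 to 6.67). Over all exons with a form in both assemblies compared, the gap was smaller: 230 of 3083 (7.46%) and 218 of 3075 (7.09%) for liver against muscle, and 250 of 3721 (6.72%) within muscle.

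A further 361 exons had a single form in liver and both forms in each muscle assembly, against 162 and 155 for muscle assemblies 2 and 3. Among these liver exons, 211 were skipped in liver and 150 included. In the reverse arrangement, both forms in 1 assembly and the same single form in the other 2, liver did not stand apart. It was found at 512 exons for liver, 531 for muscle assembly 2 and 575 for muscle assembly 3. Both forms were assembled everywhere for 324 exons, and at 99 exons the 3 assemblies held 3 different forms. These 99 are not among the exons at which 1 assembly differed from the other 2. Liver held skipping alone at 36 of them with inclusion alone in muscle assembly 2, and at 26 with inclusion alone in assembly 3. It held inclusion alone at 6 with skipping alone in muscle assembly 2, and at 12 with skipping alone in assembly 3. At 11 and 8 exons liver held both forms, and the muscle assemblies opposite single forms.

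Among the exons included in liver and skipped in muscle, the one carried by the most transcripts was a 74-base exon on scaffold 14076, from position 904624 to 904697 on the plus strand. Liver had 4 including transcripts, with assembler scores of 1000, 954, 652 and 384. Cufflinks scores the leading transcript of a locus 1000 and the others relative to it, so scores rank transcripts within a locus only. Muscle assembly 2 had 3 skipping transcripts (scores 1000, 628 and 462), and muscle assembly 3 also had 3 (1000, 209 and 182). Each tissue's leading transcript thus carried the opposite form, and none of the 3 assemblies held both forms. The exon lies between introns of 295 and 329 bases.

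A 96-base exon on scaffold 9109 (6079327 to 6079422, minus strand) had the same pattern. Liver had 3 including transcripts (scores 1000, 673 and 598), muscle assembly 2 had 2 skipping ones (1000 and 734) and muscle assembly 3 had 2 (1000 and 594). Its flanking introns were long, 1982 bases upstream and 5121 downstream. On scaffold 22745 an exon of 88 bases (2060262 to 2060349, minus strand) was in 2 liver transcripts (1000 and 938). It was skipped in 3 transcripts of muscle assembly 2 (1000, 847 and 756) and in 1 of muscle assembly 3 (683), which was not the leading one. Of these 3 exons, only the one of 96 bases has a length that is a multiple of 3.

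The next exons in this direction rested on fewer transcripts. On scaffold 11323 an exon of 114 bases (1120046 to 1120159) was in 1 liver transcript (1000) and was skipped in muscle by transcripts of 1000 and 401 (assembly 2) and of 1000 and 310 (assembly 3). An exon of 712 bases on scaffold 21752 (202873 to 203584) was in 2 liver transcripts (632 and 294), neither of them the leading one, and was skipped by the leading transcript of each muscle assembly. It lies between introns of 13251 and 44352 bases. On scaffold 22742 an exon of 90 bases (1059280 to 1059369) was in liver transcripts of 1000 and 301, and was skipped in muscle at 1000 and 780 and at 404. The other named exons of this direction had 4 transcripts each. They were 88 bases on scaffold 11766 (2921393 to 2921480), 135 bases on scaffold 11824 (482314 to 482448), 123 bases on scaffold 1444 (177304 to 177426) and 68 bases on scaffold 18267 (199649 to 199716). In all 4 the liver transcript scored 1000. Skipping transcripts led in both muscle assemblies only on scaffold 11766. On scaffolds 11824 and 18267 they led in muscle assembly 2 but not in assembly 3 (799 and 192, and 917 and 739). On scaffold 1444 they led in neither (394 and 158 in assembly 2, 503 in assembly 3). The exon on scaffold 1444 was also present in a muscle assembly between other introns.

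In the other direction, a 69-base exon on scaffold 21204 (33899 to 33967, minus strand) was skipped by 2 liver transcripts, with scores of 722 and 320. It was included in 2 transcripts of muscle assembly 2 (1000 and 576) and in 3 of muscle assembly 3 (1000, 765 and 324). The leading transcript of each muscle assembly thus carried the exon, while neither liver transcript that skips it was the leading one. A 45-base exon on scaffold 22988 (262108 to 262152, plus strand) was skipped in liver at 1000 and 244, and was included at 1000 and 228 in muscle assembly 2 and at 1000, 293 and 146 in muscle assembly 3. Here the leading transcripts of liver and muscle carried opposite forms.

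Exons of 96 bases on scaffold 15019 (1537083 to 1537178) and of 66 bases on scaffold 19577 (144597 to 144662) were each skipped by 2 liver transcripts and included in 4 muscle transcripts. The former was skipped at 939 and 697 and included at 1000 in muscle assembly 2 and at 1000, 725 and 619 in assembly 3. The latter was skipped at 1000 and 899 and included at 1000, 322 and 238 and at 1000. Both have lengths that are multiples of 3. An exon of 100 bases on scaffold 23040 (183271 to 183370) was skipped by 3 liver transcripts of nearly equal score (1000, 965 and 959) and included at 1000 and 437 and at 1000 in muscle. The others named in this direction were of 64 bases on scaffold 11778 (648425 to 648488), 150 on scaffold 17832 (213161 to 213310), 195 on scaffold 22100 (433445 to 433639), 115 on scaffold 373 (290435 to 290549) and 1836 on scaffold 10071 (990362 to 992197). All 5 were in the leading transcript of both muscle assemblies. In liver the leading transcript skipped those on scaffolds 11778, 22100 and 373. The liver transcripts that skip those on scaffolds 17832 (948 and 283) and 10071 (534) were not the leading ones. The exon on scaffold 10071 was also present in liver between other introns.

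Over all 87 exons, the form of each tissue was carried by the leading transcript in all 3 assemblies for 10 of the 34 included in liver and for 24 of the 53 included in muscle. Each locus of the assembler has a leading transcript, and the only transcript of a locus leads by default. Liver had 17878 such loci for 23614 transcripts, muscle assembly 2 had 23572 for 31092 and muscle assembly 3 had 20289 for 27092. Most transcripts thus lead their locus, and no matching share over other exons was computed. The exon itself was absent from the assemblies that skipped it, also with other flanking introns, for 31 of the 34 and 47 of the 53. The reverse, an intron with other ends that skips the exon in an assembly that included it, was not counted. Median lengths of the 34 and the 53 were 96 bases (range 38 to 2358) and 92 bases (range 45 to 1836). Of the 87, 47 had a length that is a multiple of 3 (54.0%, Wilson 95% interval 43.6 to 64.1), near the 52.2% (50.4 to 54.0) of all 2882 exons compared. The share was lower where 1 muscle assembly stood alone, 12 of 35 (34.3%, 20.8 to 50.8) and 14 of 41 (34.1%, 21.6 to 49.5), with intervals that overlap that of the 87.

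By the forms assembled, short exons were skipped in liver and included in muscle more often than the reverse. Among 305 exons of 31 to 50 bases with a form in every assembly, liver held skipping alone at 44 that both muscle assemblies included, either both without skipping or both with it. It held inclusion alone at 11 that both muscle assemblies skipped, in the same sense. Skipping thus made up 80.0% of the 55 (Wilson 95% interval 67.6 to 88.4). For exons of 51 to 100 bases the counts were 110 and 75 (59.5%, 52.3 to 66.3), for 101 to 150 bases 57 and 55 (50.9%, 41.8 to 60.0), and above 150 bases 53 and 43 (55.2%, 45.3 to 64.8).

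The muscle assemblies, treated the same way, held inclusion alone more often than skipping alone at each length. Muscle assembly 2 held skipping alone at 8 and inclusion alone at 11 exons of 31 to 50 bases, and muscle assembly 3 at 7 and 16. Over all lengths, skipping made up 58.9% of 448 such exons for liver (54.3 to 63.4), 38.1% of 197 for muscle assembly 2 (31.6 to 45.0) and 36.7% of 196 for muscle assembly 3 (30.3 to 43.7). The skew of short exons to skipping was therefore seen where liver differed, and not where either muscle assembly differed from liver and the other. Forms of the muscle assemblies against each other alone were not counted by length. The skew was also not seen in the score share of including transcripts at exons with both forms in every assembly. Of 37 such exons of 31 to 50 bases, 20 had the lower share in liver (54.1%), against 55.2% at 51 to 100 bases and 62.2% at 101 to 150. Their median liver minus muscle was -0.0160 (95% interval -0.0879 to 0.103).

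**Figure D2:**
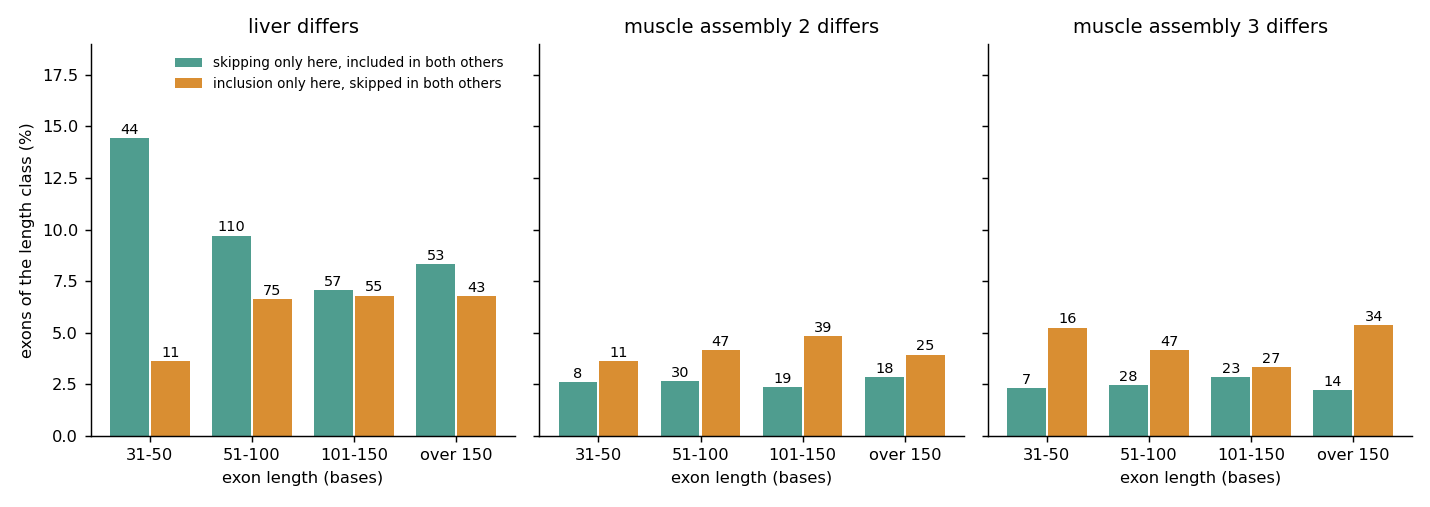
Share of cassette exons, of those with a form in all 3 assemblies, by exon length class. Counted are exons at which the assembly named in the title held 1 form alone and both others held the other form. The others held it either both without the first form or both with it. Numbers above the bars are exons, and the tallest bar is the 44 exons of 31 to 50 bases that liver skipped and both muscle assemblies included.

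Cassette exons were shorter than other internal exons and more often had a length that is a multiple of 3. Their median length was 104 bases (quartiles 72 and 148), against 125 bases (91 and 168) for the 120214 other internal exons. Cassette exons made up 9.38% of internal exons of 31 to 50 bases, 4.68% at 51 to 100, 2.99% at 101 to 150, 2.50% at 151 to 200 and 2.71% above 300, so the shortest class held the highest share. The minimum length belongs to the choice of exons: 53 of 391 internal exons of 31 to 33 bases were skipped alone, and 41 of 291 of 28 to 30 bases, which were not taken. The longest cassette exon had 5894 bases, on scaffold 21754 from 1298557 to 1304450. It was skipped in liver, and muscle assembly 3 held both forms. At the other end, 7 cassette exons had 31 bases.

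Lengths that are multiples of 3 made up 2264 of the 4460 cassette exons (50.8%, Wilson 95% interval 49.3 to 52.2), against 38.9% (38.7 to 39.2) of the other internal exons. A remainder of 1 was found for 23.6% and of 2 for 25.6% of cassette exons, against 30.8% and 30.3% of the others. The difference was present in every length class, widest at 31 to 50 bases, where 58.0% (53.2 to 62.6) of cassette exons and 37.5% (36.0 to 39.0) of others were multiples of 3. Above 300 bases the intervals overlapped, 45.5% (38.3 to 52.8) against 37.7% (36.6 to 38.9).

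The share of multiples of 3 was highest among exons whose both forms were seen repeatedly. Of the 324 exons with both forms in all 3 assemblies, 230 were multiples of 3 (71.0%, 65.8 to 75.7). With inclusion in every assembly and skipping in 2 the share was 61.4% (56.3 to 66.3, 360 exons), and with skipping in every assembly and inclusion in 2 it was 60.1% (54.6 to 65.3, 318 exons). Where either form was seen in only 1 assembly, the shares lay between 42.7% and 49.1%. Other internal exons had no such gradient, with 38.2%, 41.0% and 38.5% for those seen in 1, 2 and 3 assemblies. Cassette exons limited to 1 observation of a form were thus nearer to other internal exons in this feature, but each of these shares was above 38.9%. The lowest, 42.7% with skipping in every assembly and inclusion in 1 (640 exons), had an interval of 38.9 to 46.5, which reaches that level.

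**Figure D3:**
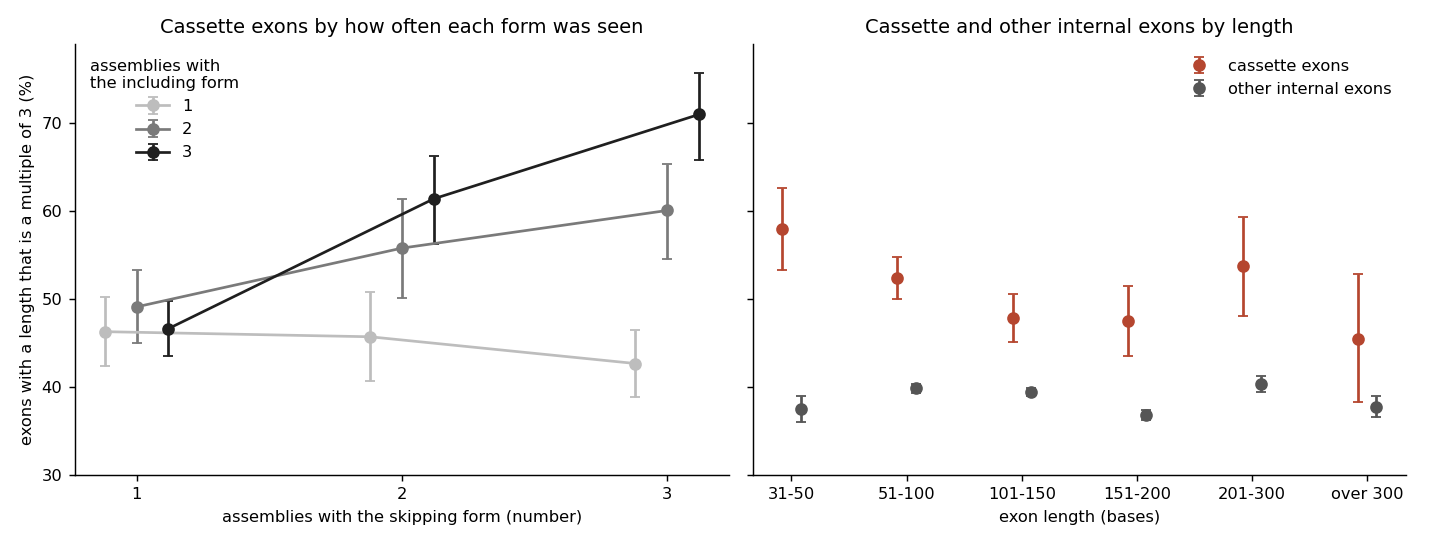
Share of exons with a length that is a multiple of 3 (percent, points) with Wilson 95% intervals (bars). Left, cassette exons by the number of assemblies that held the skipping form (x axis) and the including form (shade), reaching 71.0% where all 3 held both. Right, cassette and other internal exons by exon length, the vertical axis starting at 30%.

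The introns around cassette exons were longer. The shorter of the flanking introns had a median of 834 bases (quartiles 364.75 and 1849), against 490 bases (206 and 968) at other internal exons. The longer one had a median of 2360 bases against 1215. Upstream and downstream introns of cassette exons were alike, with medians of 1360 and 1462.5 bases, and the upstream one was the longer at 48.8% of exons. Cassette exons lay slightly nearer the start of their transcripts, at a median relative position of 0.458 (0 is the first and 1 the last exon) against 0.500. They were also seen less widely: 40.8% were assembled as an internal exon in all 3 assemblies, against 64.0% of the others. Part of this follows from the choice of exons, since skipping in an assembly makes an exon a member while it can be absent there. Skipping alone was found for 935 exons in liver, of which 35 were present there between other introns. In muscle assemblies 2 and 3 this held for 76 of 754 and 65 of 816.

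For exons with both forms in an assembly, an inclusion share was computed as the summed scores of including transcripts over those of including and skipping transcripts of the same locus. Including transcripts were only those with the exon between flanking introns that were skipped. Transcripts that carry the exon between other introns were left out of the share. So were transcripts that skip it by an intron with other ends. No transcript scored below 100, so forms of lower score are not listed. The median share was 0.567 in liver (quartiles 0.331 and 0.755, 1449 exons), 0.554 in muscle assembly 2 (2108 exons) and 0.548 in muscle assembly 3 (1988 exons). Over the 324 exons with both forms everywhere, liver minus the mean of the muscle assemblies had a median of -0.0227 (95% interval of the median -0.0466 to -0.000763). Shares were thus centred at nearly the same level in both tissues, and single exons differed in both directions.

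The spread between liver and muscle was wider than that between the muscle assemblies, which may share birds, libraries or reads. The median absolute difference was 0.132 for liver against muscle assembly 2, 0.135 against muscle assembly 3 and 0.0858 between the muscle assemblies. Differences of 0.25 or more, a size chosen after the data were seen, were found for 66 exons, 78 exons and 38 exons in the same order. Pearson's r across the 324 exons was 0.461, 0.381 and 0.645. These exons share assemblies and loci and are not replicates. Liver lay at least 0.25 away from both muscle assemblies on the same side at 36 exons (17 higher, 19 lower), muscle assembly 2 from the other assemblies at 13 and muscle assembly 3 at 14. Lengths that are multiples of 3 were found for 15 of the 17 exons higher in liver (88.2%, Wilson 95% interval 65.7 to 96.7) and 15 of the 19 lower in liver (78.9%, 56.7 to 91.5), and both intervals hold the 71.0% of all 324.

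**Figure D4:**
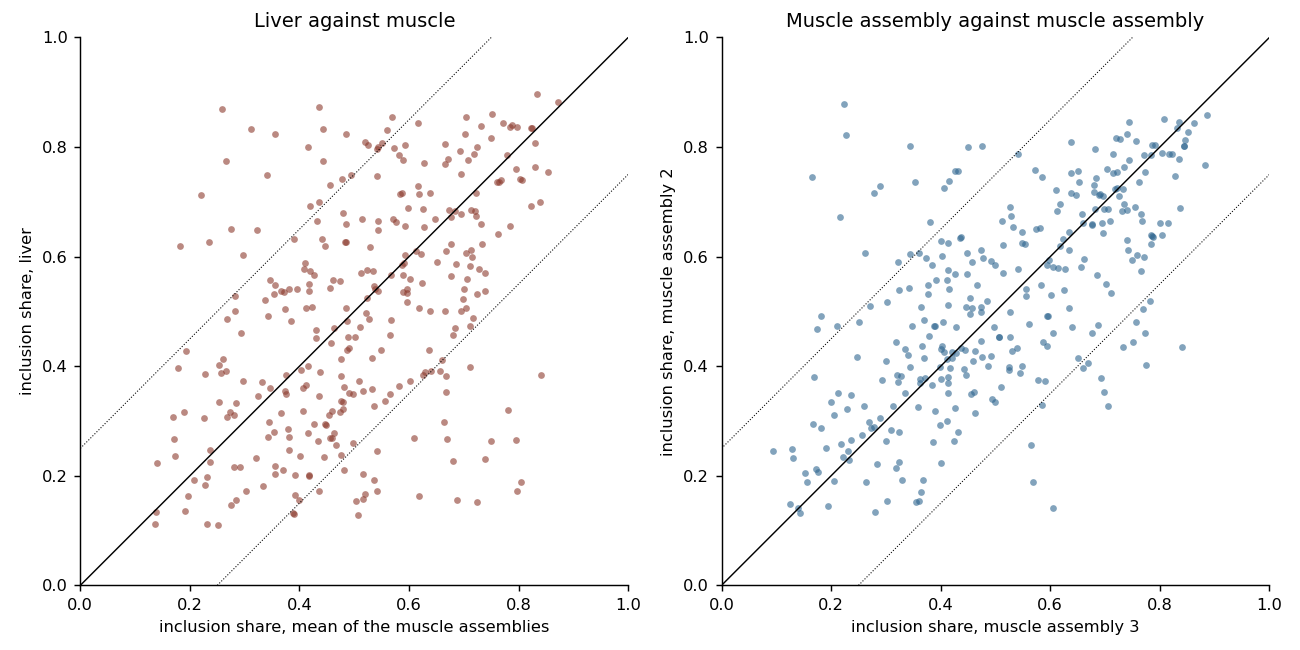
Inclusion share by transcript score for the 324 exons with both forms in all 3 assemblies, 1 point per exon. Left, liver against the mean of the muscle assemblies; right, muscle assembly 2 against 3. The solid line marks equal shares and the dotted lines a difference of 0.25; more points lie outside the dotted lines on the left.

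The largest shift to inclusion in muscle was at a 45-base exon on scaffold 21796 (1420977 to 1421021, plus strand). Its inclusion share was 0.172 in liver, 0.803 in muscle assembly 2 and 0.791 in muscle assembly 3, with 1 transcript of each form in each assembly. A 33-base exon on scaffold 16320 (40869 to 40901) had shares of 0.188, 0.787 and 0.823 in the same order. In both, the skipping transcript led in liver and the including transcript led in muscle.

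Exons of 33 bases on scaffolds 10679 (20599 to 20631) and 19336 (59261 to 59293) followed. The former had shares of 0.153, 0.691 and 0.755, and the latter of 0.156, 0.665 and 0.709. The fifth was an exon of 87 bases on scaffold 14076 (2683792 to 2683878), with 0.266, 0.846 and 0.743. The muscle assemblies differed from each other by at most 0.103 at these exons.

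In the direction of liver, a 45-base exon on scaffold 11824 (527271 to 527315, plus strand) had the largest difference. Its inclusion share was 0.869 in liver, 0.312 in muscle assembly 2 and 0.206 in muscle assembly 3. It lies between short introns of 518 and 620 bases. A 67-base exon on scaffold 22143 (184471 to 184537) had shares of 0.834, 0.223 and 0.401, with muscle assembly 2 minus 3 at -0.178. Its length is not a multiple of 3, while those of the other exons named for their shares are, in a pool of 324 where 71.0% were.

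The remaining 3 were of 45 bases on scaffold 15019 (163704 to 163748), of 60 bases on scaffold 12010 (471924 to 471983) and of 66 bases on scaffold 2068 (2583924 to 2583989). Their liver shares were 0.775, 0.712 and 0.824. Their muscle shares were 0.275 and 0.256 for the first, 0.251 and 0.190 for the second and 0.299 and 0.412 for the third. In each the including form led in liver and the skipping form in both muscle assemblies. These 10 exons were picked for the size of their difference, so that size is a description.

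Cassette exons were spread over 2900 of 14921 spliced loci (19.4%, transcripts of 1 strand merged over all assemblies) on 785 scaffolds. Most of these loci, 1927, held 1 cassette exon, and 52 held 5 or more. The most, 12, lay in 1 locus on scaffold 21596 (204773 to 298408, plus strand). Of these, 11 have lengths that are multiples of 3, where 50.8% of all cassette exons do. Transcripts of this locus had up to 44 exons in muscle assembly 2, up to 40 in muscle assembly 3 and up to 20 in liver, where the locus was assembled in separate pieces.

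At this locus 6 of the 12 exons had skipping alone in liver and both forms in each muscle assembly. They were of 57 bases at 261470 to 261526, 57 at 264768 to 264824, 387 at 269647 to 270033, 51 at 273585 to 273635, 153 at 286955 to 287107 and 34 at 291282 to 291315. At 4 of them, 5 liver transcripts each joined the neighbouring exons directly. Both forms were found in all 3 assemblies for the exons of 63 bases (235052 to 235114) and 75 bases (289496 to 289570). The inclusion share of the latter was 0.167 in liver, 0.625 in muscle assembly 2 and 0.414 in muscle assembly 3. The muscle assemblies did not agree in order at single exons: at 261470 the share was 0.723 in assembly 2 and 0.248 in assembly 3, and at 264768 it was 0.348 and 0.661. No exon of the locus had inclusion alone in liver.

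**Figure D5:**
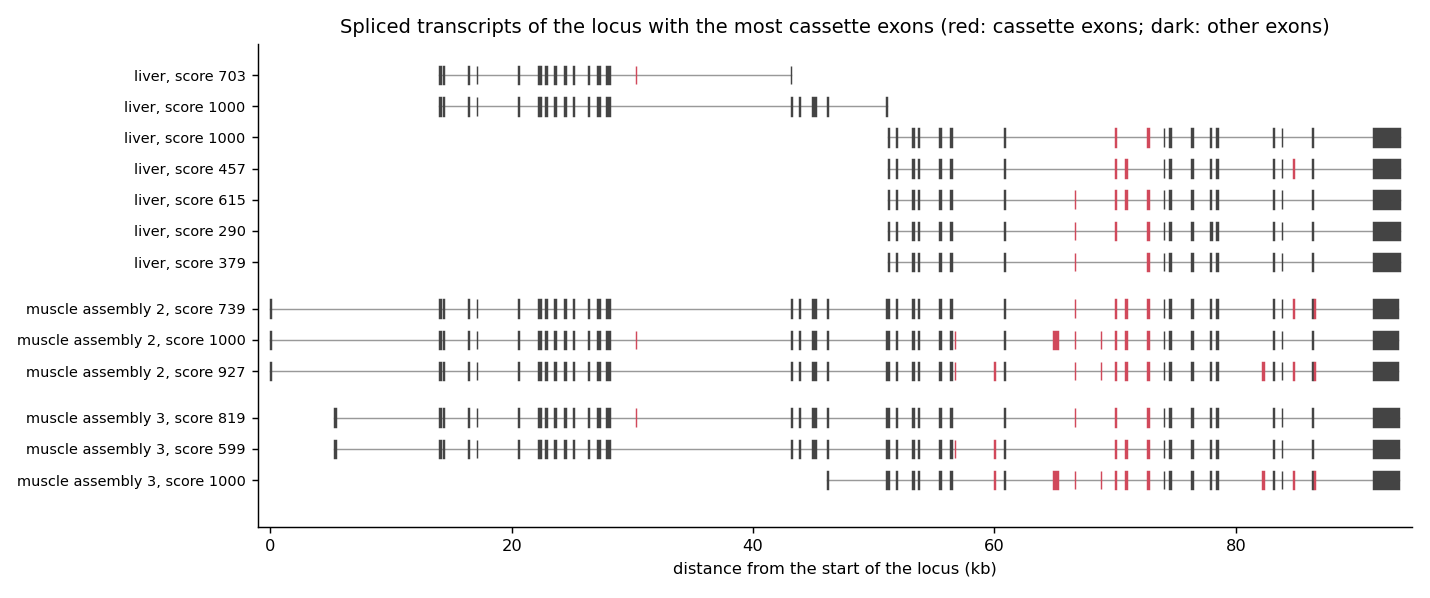
Spliced transcripts of the locus on scaffold 21596, to scale, by distance from the start of the locus (kb), with 1 line per transcript and its assembler score. Red boxes are the 12 cassette exons and dark boxes other exons; the muscle transcripts carry red exons that none of the liver transcripts has.

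A locus on scaffold 21413 (814902 to 869343, minus strand) had 9 cassette exons with both forms in muscle assembly 2 and 0 spliced transcripts in liver. Of the 9, 8 were multiples of 3 (50.8% of all cassette exons were), among them 3 of 105 bases and 2 of 99 bases. Muscle assembly 3 held 1 transcript of 42 exons there, which included 8 of the 9 and skipped the 69-base exon at 842662 to 842730. In muscle assembly 2 the inclusion share of that exon was 0.238, and those of the others ranged from 0.384 to 0.895. Liver's own highest count was 6 exons with both forms, reached by 3 loci. One of them lay on scaffold 14602 (36969 to 136081, minus strand), where muscle assembly 3 held neither form of 5 of the 7 cassette exons.

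The gene table could be tied to cassette exons only where 1 gene, numbered 1, was listed on a scaffold. This held for 64 genes, with 88 cassette exons on their scaffolds. Their median level was 0.230 RPKM (reads per kilobase of gene length and per unit of sequencing depth) in liver and 0.512 RPKM in muscle, against 0.282 and 0.850 RPKM for all 1617 such genes. On the scale of log2(RPKM + 1), liver minus muscle had a median of -0.21 (quartiles -0.54 and -0.03), against -0.32 (-0.91 and -0.02) for all 1617. Centred on genes with 1 RPKM or more in both tissues, the median of the 64 turned to 0.36. Centring moves every gene by the same amount, so it leaves the difference between the 64 and the 1617 as it was. Of the 64, 1 was at least 4-fold higher in liver and 2 in muscle, where 2.29% and 6.06% of the 1617 genes were. Few of the 64 passed that size in either direction, and the counts are too small to set against those shares.

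Of the 87 exons with opposite forms, 6 lay on such scaffolds, and all 6 were skipped in liver and included in muscle. The gene on scaffold 14184, evm.TU.scaffold14184.1, stood at 0.0695 RPKM in liver and 1.71 RPKM in muscle, a difference of -1.34 in log2(RPKM + 1). The exon of 165 bases on that scaffold lies at 59299 to 59463; the table gives no gene positions, so overlap of gene and exon was not tested. For evm.TU.scaffold194680.1 the values were 0.693 and 2.35 RPKM (exon at 1070 to 1197). For evm.TU.scaffold22659.1 they were 0.737 and 1.68 RPKM (exon at 124568 to 124768). These 3 genes had the higher level in muscle, none past 4-fold on the scale of log2(RPKM + 1), where the pseudocount shrinks differences of such low values.

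The gene evm.TU.scaffold22988.1, listed alone on the scaffold of the 45-base exon with opposite leading forms, stood at 0.258 RPKM in liver against 0.244 RPKM in muscle. At such low levels the pseudocount flattens differences, and centring would move this one too. The last 2 genes were close to 0 in both tissues: evm.TU.scaffold22405.1 had 0.0561 and 0.130 RPKM, and evm.TU.scaffold22796.1 had 0.0291 and 0.0109 RPKM.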

How the data were processed

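Reads were aligned with TopHat per the submitters' processing notes, and transcripts were assembled with Cufflinks per the deposited files. No source used here names their versions, the genome build or the annotation. Each deposited assembly gives 1-based exon positions and a transcript score between 100 and 1000, whose highest value was 1000 in every locus of the assembler. The authors deposited RPKM per gene for liver and muscle.

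Introns are gaps between consecutive exon rows, compared by scaffold, both ends and strand. Where an exon had several pairs of flanking introns, the pair with the shortest span was used, for cassette exons among the pairs that were skipped. The rule that finds cassette exons was tested on simulated assemblies. Shares have Wilson 95% intervals and medians order-statistic 95% intervals, both for counting error only. Log2 values use a pseudocount of 1 RPKM, which understates differences of low genes. The depth behind the assemblies is unknown from the files used here.

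Exons were named by rule: up to 10 per direction with opposite forms, by number of transcripts; 5 per direction by inclusion share difference with 1 sign against both muscle assemblies; loci with the most cassette exons; shortest and longest. The exons, classes and rules were chosen with earlier results of these data known. Alternatives changed exon and intron lengths, the score minimum, the assemblies used, the pseudocount and the centring. No reference sequence was used here. Python 3.11.15, numpy 2.4.6, scipy 1.17.1 and matplotlib 3.10.9 were used.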

Additional observations from a re-analysis of the deposited data

How the results depend on the processing

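Of 59 alternatives over 7 results, 49 stayed within 1.5 times the count or within the interval of the value as reported. The count of 87 opposite exons became 232 without muscle assembly 3 and 223 without muscle assembly 2, because a single muscle assembly then decides the form. It became 0 where all 3 introns had to occur in 1 assembly, which removes such exons by construction. Multiples of 3 made up 52.6% without muscle assembly 3 and 53.2% without muscle assembly 2. A minimum exon length of 51 bases raised the median length to 111 bases by construction. The median log2 difference of genes alone on a scaffold with a cassette exon was -0.21 as reported. It was -0.62 with a pseudocount of 0.1, -0.055 with a pseudocount of 5 and -0.69 among genes with 1 RPKM or more in either tissue. It turned to 0.36 when centred on genes with 1 RPKM or more in both tissues, so no direction between the tissues rests on it. Counting 1 exon per group of overlapping exons, an alternative chosen after the data were seen, left 4239 exons and 81 opposite ones. No paired analysis was possible because each tissue has 1 sample. Depth and assembly limit every absence: a form not assembled in a tissue is not shown to be absent from it.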

Other observations

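Several cassette exons shared 1 skipping intron. Of 4270 skipping introns, 263 spanned 2 or more cassette exons. They gave 65 pairs that do not overlap, and 45 of these never occurred together in 1 transcript. The exons of a pair share the outer ends of the flanking introns that were skipped. A transcript that includes 1 exon between such introns thus leaves out the other by construction. Only transcripts that carry the exons between other introns hold both. The count of 45 therefore does not show that 1 exon excludes the other, which was not tested. In 3 of the 45, counting inclusion only with the flanking introns that were skipped, 1 exon was included in liver alone and the other in both muscle assemblies alone. The liver exon on scaffold 1444 was also present in a muscle assembly between other introns. On scaffold 1444 the liver exon had 123 bases (177304 to 177426) and the muscle exon 180 bases (170834 to 171013). On scaffold 20113 the liver exon had 123 bases (1651602 to 1651724) and the muscle exon 168 bases (1647286 to 1647453). Both muscle assemblies held neither form of that liver exon. On scaffold 4763 the liver exon had 129 bases (2155304 to 2155432) and the muscle exon 39 bases (2153689 to 2153727). Muscle assembly 2 held neither form of that liver exon. The liver exons on scaffolds 20113 and 4763 thus lie outside the exons with a form in all 3 assemblies. The lengths of all 6 exons are multiples of 3, as are 50.8% of all cassette exons.

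Another 3 of the 45 pairs were of equal length and lay close together. They had 114 bases with 55 bases between them on scaffold 22875 (1850271 to 1850384 and 1850440 to 1850553), 99 bases with 74 between on scaffold 3561 (1219447 to 1219545 and 1219620 to 1219718), and 126 bases with 180 between on scaffold 9530 (1184516 to 1184641 and 1184822 to 1184947). Liver held inclusion alone for each of these 6 exons.

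Overlapping pairs under 1 skipping intron numbered 231. In 150 of them the exons had the same 3 prime end and a different acceptor, and the most common distance between the acceptors was 3 bases, in 35 pairs. Donors differed in 74 pairs, most often by 2 bases, in 9 pairs. In including transcripts, which hold the exon between flanking introns that were skipped, 169 of 4460 cassette exons (3.79%) lay next to another one. The longest run counted in this way was 3. Cassette exons that follow each other between other introns were not counted. Longer runs occur there: at the locus on scaffold 21596, a transcript of each muscle assembly carried only cassette exons from 269647 to 277556.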
